A study of Homo sapiens with 6 samples.

Results

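The genes described here are the protein-coding members of the human HIST gene clusters, which encode the histone H1, H2A, H2B, H3 and H4 proteins. They were taken as every gene whose symbol opens with HIST1H, HIST2H, HIST3H or HIST4H and that has at least 1 protein-coding (NM) RefSeq transcript in the table, which gave 70 of 27408 genes. There were 55 genes of HIST1 on chromosome 6, 11 of HIST2 and 3 of HIST3 on chromosome 1, and 1 of HIST4 on chromosome 12. By class they comprised 6 H1, 17 H2A, 18 H2B, 14 H3 and 15 H4 genes. RNA sequencing libraries came from the established pancreatic cancer lines MIA-PaCa2 and PANC-1, both human, each with the LPCX control construct or with overexpression of ESRP1 or of ESRP2, RNA-binding proteins that regulate splicing in epithelial cells. There was 1 library for each line and construct, 6 in all, and the 3 libraries of a line are derivatives of the same line, so p-values between lines measure only the spread among these libraries. All values are TPM, transcript abundances scaled for length and library size, for which the number of reads is unknown. The 3 values of a line are always given in the order LPCX, ESRP1, ESRP2.

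Most genes of these clusters are transcribed in S phase, when new DNA must be packed into nucleosomes, and each nucleosome core holds H2A, H2B, H3 and H4 while H1 binds the linker DNA. Replication-dependent histone mRNAs end in a short stem-loop that is bound by SLBP instead of a poly(A) tail, and they are degraded when replication stops. Some of these genes also give longer, polyadenylated transcripts, and library kits for mRNA of the type named in the labels select RNA by its poly(A) tail. The levels here are therefore levels in such libraries. In these bulk libraries, a smaller share of cells in S phase and less histone RNA per cell cannot be told apart.

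The stem-loop sequences are shown because they are the shared feature that sets these transcripts apart from other mRNAs. The histone stem-loop was searched on the sense strand. Its 16 bases were GG, any 2 bases, CTTTT, any base, AG, any 2 bases and CC. It was found anywhere in the sequence of 128 of 206694 GENCODE release 29 transcripts (0.0619%). For the 70 genes only the stretch after the coding end was searched, and 31 held the stem-loop. The models of another 35 genes end within 15 bases of the coding end and could not hold it, and 4 longer models had no match. All forms found are printed 5′ to 3′ in DNA letters, with the paired stem positions in capitals.
H2A, H2B and H3 form: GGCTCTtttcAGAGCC
H2B and H3 form: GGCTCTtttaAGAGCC
first H4 form: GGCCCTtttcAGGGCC
second H4 form: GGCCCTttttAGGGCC
HIST1H2AG form: GGCTCTtttcAGGGCC
The first form was found in 6 H2A, 8 H2B and 3 H3 genes, and the second in 3 H2B and 2 H3 genes. All 8 H4 genes with a match carried the GGCCCT stem, 5 with the tttc loop and 3 with the tttt loop. HIST1H2AG paired the GGCTCT arm of the other classes with the AGGGCC arm of the H4 genes. In 20 of the 31 genes the GENCODE model runs on for 100 or more bases after the stem-loop, and 10 of those 20 have an AATAAA poly(A) signal in the last 40 bases. The signal was not confined to them, since 15 of all 73 models have it there. Shorter stem-loop models with it are those of HIST2H2AA3, HIST2H2AA4, HIST1H2BD and HIST1H4J. The 20 genes with the longer stretch had a median level, averaged over the 6 libraries, of 4.56 TPM, and 13 of them reached 5 TPM in some library. The 11 genes whose models stop within 100 bases of the stem-loop had a median of 2.41 TPM, with 6 reaching 5 TPM. The 35 genes whose models stop at the coding end had a median of 1.83 TPM, with 12 reaching 5 TPM. The ranges of these 3 groups overlapped, from 0.068 to 48.7 TPM, from 0 to 21.8 TPM and from 0 to 161 TPM. The groups follow GENCODE models, while the TPM were listed for RefSeq transcripts, so a model's end need not be that of the transcript measured. Both listed HIST1H2BK transcripts, for example, match the same GENCODE model of 381 bases. A link between model end and level was not tested.

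Upstream sequence is printed for the genes with the widest differences between the lines for which RefSeq (GRCh38.p14) lists the stretch before the start. Capitals mark the TATA box (TATAAA), the CCAAT box and the octamer ATTTGCAT, each searched on both strands. For HIST3H2A and HIST2H2AC the printed stretch is the whole interval to the start of the divergent partner gene, HIST3H2BB or HIST2H2BE.
HIST2H2BF, chr1:149812371-149812620, minus strand: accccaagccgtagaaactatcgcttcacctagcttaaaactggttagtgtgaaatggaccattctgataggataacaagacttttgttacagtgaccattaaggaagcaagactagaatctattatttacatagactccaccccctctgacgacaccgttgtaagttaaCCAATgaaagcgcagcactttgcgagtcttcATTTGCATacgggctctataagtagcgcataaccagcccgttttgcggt
HIST2H3D, chr1:149813694-149813943, minus strand: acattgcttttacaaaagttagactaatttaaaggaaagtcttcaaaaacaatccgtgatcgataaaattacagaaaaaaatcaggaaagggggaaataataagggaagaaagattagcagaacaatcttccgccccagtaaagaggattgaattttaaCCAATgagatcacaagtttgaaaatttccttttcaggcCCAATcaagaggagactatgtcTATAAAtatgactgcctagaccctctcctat
HIST3H2A, chr1:228457874-228458102, minus strand: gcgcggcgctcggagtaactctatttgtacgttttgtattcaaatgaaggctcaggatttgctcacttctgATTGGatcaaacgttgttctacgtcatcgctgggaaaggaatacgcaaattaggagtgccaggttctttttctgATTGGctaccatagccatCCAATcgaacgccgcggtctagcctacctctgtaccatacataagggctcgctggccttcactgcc
HIST2H2AC, chr1:149886683-149886917, plus strand: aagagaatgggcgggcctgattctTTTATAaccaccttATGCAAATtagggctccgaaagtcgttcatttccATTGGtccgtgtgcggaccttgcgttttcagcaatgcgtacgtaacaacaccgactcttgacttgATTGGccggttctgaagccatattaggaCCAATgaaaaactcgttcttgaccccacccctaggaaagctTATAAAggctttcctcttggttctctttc
RefSeq listed a promoter, from 250 bases before to 50 after the start, for 65 of the 70 genes. TATAAA was present in 66.2% of them, against 11.5% of all 35116 listed promoters. CCAAT was present in 84.6%, against 34.6% of all promoters, and was found in every listed H1, H2A, H2B and H3 promoter but in 3 of 13 H4 promoters. The octamer ATTTGCAT was present in 14 of 18 H2B and 11 of 16 H2A promoters, in 1 of 12 H3 promoters and in no H1 or H4 promoter, against 1.77% of all promoters. Neighbouring genes share bases here, since 14 pairs of these genes start on opposite strands 193 to 978 bases apart, 12 of them an H2A and an H2B gene.

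The lines carried epithelial and mesenchymal markers side by side. The keratins KRT8 and KRT18 lay between 679.8 and 2223 TPM in the 6 libraries, and VIM, the mesenchymal filament vimentin, between 4143 and 5620 TPM. Of the ductal keratins, KRT7 had at most 2.004 TPM. KRT19, the other one listed, had 234 to 313 TPM in MIA-PaCa2 and 366 to 502 TPM in PANC-1. CDH1, the epithelial cadherin, had 0.112 to 0.173 TPM in MIA-PaCa2 and 3.89 to 8.59 TPM in PANC-1, and the epithelial adhesion molecule EPCAM was listed at 0 in MIA-PaCa2 and at 24.3 to 28.2 TPM in PANC-1. Of 15 leukocyte, endothelial, fibroblast, acinar and islet markers, 13 had at most 0.563 TPM in every library. The exceptions were the lysosomal gene CD68 (20.5 to 364 TPM) and the endothelial CDH5 (0 to 2.85 TPM), and their part in the differences between the lines was not tested. ESRP1 reached 367 and 491 TPM where it was introduced and had at most 0.261 TPM elsewhere. ESRP2 reached 197 TPM in MIA-PaCa2 ESRP2, against 0.07 and 0.106 TPM in the other MIA-PaCa2 libraries, and 308 TPM in PANC-1 ESRP2, against 34.8 and 37.7 TPM, so that PANC-1 held ESRP2 RNA also without the ESRP2 construct. The proliferation marker MKI67 was at 79.4 to 98.6 TPM in MIA-PaCa2 and 99.6 to 119 TPM in PANC-1, and TOP2A, a topoisomerase of cycling cells, at 405 to 451 and 275 to 324 TPM.

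Most of the 70 genes were low, and a few carried most of the RNA. The genes HIST1H2AA, HIST1H2BA, HIST1H4F, HIST1H4G and HIST1H4J stayed under 0.01 TPM in all 6 libraries. Another 6 peaked between 0.01 and 1 TPM, 27 between 1 and 5 TPM, and 32 reached 5 TPM in some library. HIST1H2BK, an H2B gene with 2 transcripts in the table, was the most abundant, at 142, 177 and 132 TPM in MIA-PaCa2 and 172, 182 and 165 TPM in PANC-1. It made up 19.8% to 28.8% of the summed TPM of the 70 genes. It was followed by HIST1H2AC, HIST3H2A and HIST1H1C, with means over the 6 libraries of 48.7, 40.7 and 37.1 TPM. Between 57.8% and 73.4% of the sum lay in the 10 genes with the highest means. Among the H1 genes, HIST1H1C, which encodes the linker histone H1.2, held nearly the whole sum. The other 5 H1 genes together had 5.86, 5.70 and 7.23 TPM in MIA-PaCa2 and 2.09, 1.10 and 1.97 TPM in PANC-1.

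**Figure D1:**
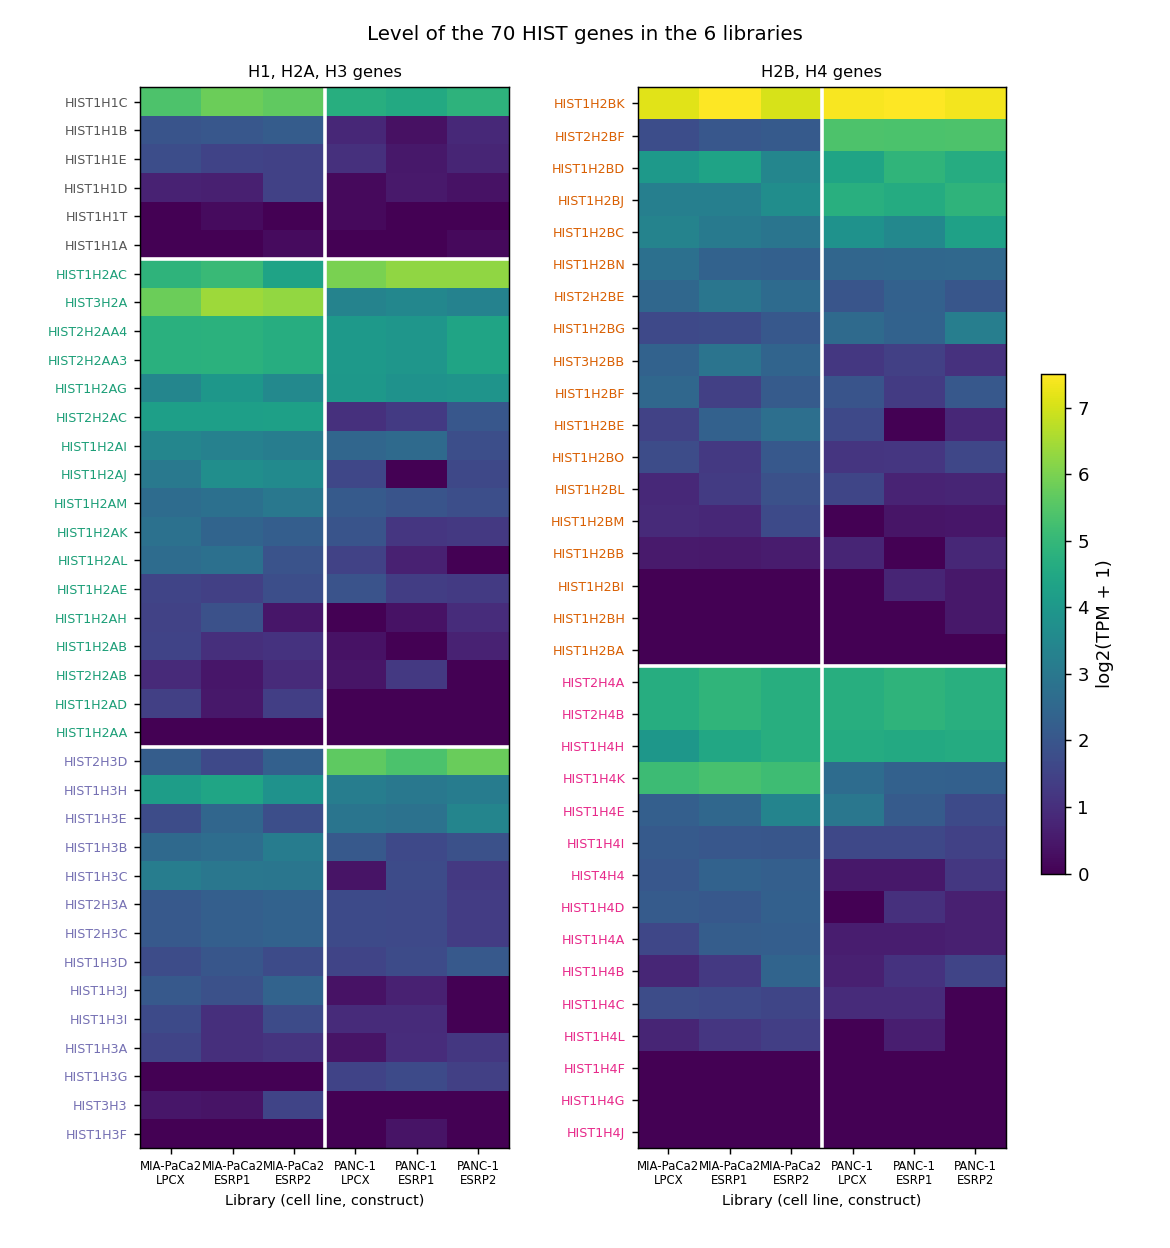
Level of the 70 HIST genes in the 6 libraries as log2(TPM + 1), rows grouped by histone class and ordered by mean TPM, with the white vertical line between MIA-PaCa2 and PANC-1. HIST1H2BK is the brightest row in every library, and HIST2H3D and HIST2H2BF are bright in the PANC-1 columns alone.

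Some copies cannot be told apart by their coding sequence. HIST2H2AA3 and HIST2H2AA4, HIST2H3A and HIST2H3C, and HIST2H4A and HIST2H4B have identical coding bases, and the deposited values within each of these pairs differed by at most 0.0016 TPM, so each pair is 1 measurement listed under separate names. HIST1H4J and HIST1H4K also have identical coding bases, and there the quantification placed the signal on HIST1H4K, up to 38.8 TPM, and none on HIST1H4J. The level of HIST1H4K is best read as that of the pair. HIST2H3D shares 97.1% of its coding bases with HIST2H3A, HIST1H2BK shares 94.0% with HIST1H2BE, and the split of reads between such genes is that of the authors' software.

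The summed level of the clusters was similar in both lines. The 70 genes together had 628, 747 and 664 TPM in MIA-PaCa2 and 626, 633 and 655 TPM in PANC-1. The mean in PANC-1 was 0.938 times that in MIA-PaCa2, with overlapping libraries and an exact permutation p of 0.3, two-sided, where 3 libraries against 3 cannot go below 0.1. The make-up by class differed. H2B genes had 206, 245 and 197 TPM in MIA-PaCa2 and 294, 305 and 302 TPM in PANC-1, which was 29.7% to 32.8% of the sum in MIA-PaCa2 and 46.2% to 48.2% in PANC-1. H2A genes had 206, 244 and 213 TPM in MIA-PaCa2 and 137, 141 and 151 TPM in PANC-1. H1 genes were 2.06 times as high in MIA-PaCa2 and H4 genes 1.48 times. None of these class sums overlapped between the lines, and each reached the smallest exact permutation p, 0.1.

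**Figure D2:**
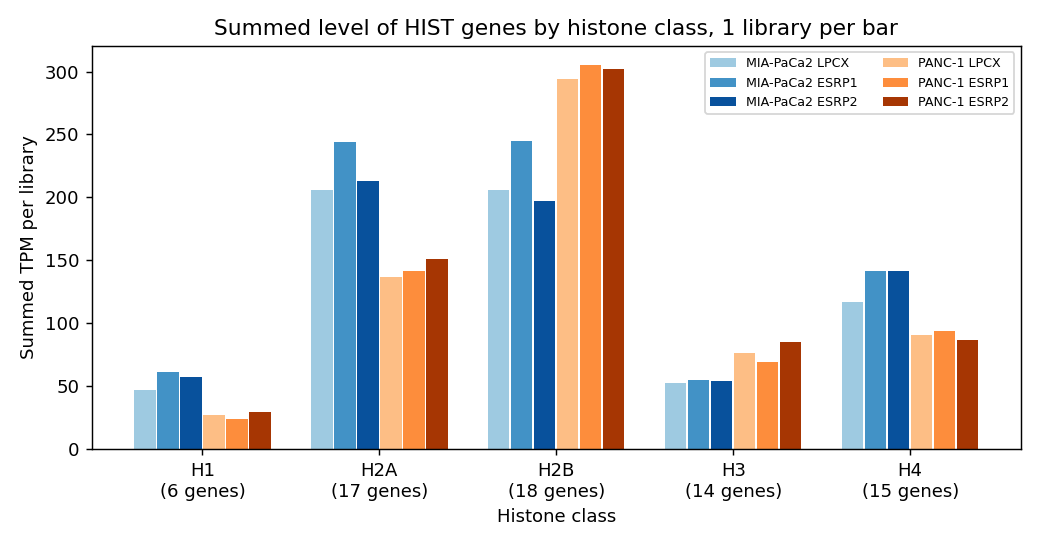
Summed TPM of the HIST genes of each histone class, 1 bar per library, with 1 library per line and construct and so no error bars. The H1, H2A and H4 bars of MIA-PaCa2 stand above those of PANC-1, and the H2B and H3 bars below.

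Single genes set some of these class differences. H3 genes had 52.5, 55.0 and 54.4 TPM in MIA-PaCa2 and 76.5, 69.3 and 84.99 TPM in PANC-1, a ratio of 1.43 in favour of PANC-1. Without HIST2H3D the other 13 H3 genes had 48.9, 52.8 and 50.4 TPM in MIA-PaCa2 and 27.7, 29.04 and 30.8 TPM in PANC-1, a ratio of 0.575. The H3 difference thus turned round when 1 gene was left out. Without HIST1H4K the H4 ratio of PANC-1 to MIA-PaCa2 moved from 0.677 to 0.882, and the libraries overlapped. Without HIST3H2A the H2A ratio moved from 0.647 to 0.896, again with overlap, and without HIST2H2BF the H2B ratio moved from 1.39 to 1.22 with no overlap. Without HIST1H1C the H1 ratio moved from 0.486 to 0.274.

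Between the lines, genes were tested with limma on log2(TPM + 1) with construct as a further term, for the 11829 genes that reached 5 TPM in 2 or more libraries, and p-values were adjusted by Benjamini-Hochberg over all of them. On this scale the change of low genes is understated. Of the 70 genes, 28 could be tested: 16 had 5 TPM in both lines, 8 passed only through MIA-PaCa2 and 4 only through PANC-1. The 8 were HIST1H2AI, HIST1H2AJ, HIST1H2AL, HIST1H2AM, HIST1H3B, HIST1H3C, HIST2H2AC and HIST2H2BE, and the 4 were HIST1H2BG, HIST1H3E, HIST2H2BF and HIST2H3D. These 12 had to lean towards the line that let them pass, so their p-values give no support for the direction. At an adjusted p of 0.05, 9 of the 28 were higher and 14 lower in PANC-1, or 82.1% in all. This share lies near the background, since 78.8% of all tested genes were called, 43.1% higher and 35.6% lower. What follows is thus the size and identity of the differences, not their number.

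The largest differences in favour of PANC-1 were in adjacent HIST2 genes on chromosome 1. HIST2H3D (chr1:149813225-149813693), an H3 gene, had 3.63, 2.18 and 3.94 TPM in MIA-PaCa2 and 48.7, 40.3 and 54.2 TPM in PANC-1. Every PANC-1 library was more than 10 times the highest of MIA-PaCa2, and the log2 difference was 3.54 (SE 0.0873, limma with Benjamini-Hochberg, adjusted p = 3.1e-06). HIST2H2BF (chr1:149782689-149812370), an H2B gene, had 2.40, 3.11 and 3.32 TPM in MIA-PaCa2 and 41.5, 40.6 and 41.3 TPM in PANC-1. The log2 difference was 3.43 (SE 0.0996, limma, adjusted p = 4.49e-06), with no overlap. Both genes passed the filter only through PANC-1, so their p-values give no support for the direction. Together this pair made up 0.71% to 1.09% of the histone sum in MIA-PaCa2 and 12.8% to 14.6% in PANC-1. HIST2H2BA, an HIST2 gene with noncoding (NR) entries only and so not among the 70, showed a like order. It had 0, 0.313 and 0 TPM in MIA-PaCa2 and 31.8, 34.7 and 36.4 TPM in PANC-1, but lies apart, at chr1:121107175-121117292. HIST2H2BC, the other HIST2 gene with NR entries only (chr1:149850192-149850773), went the opposite way. Its levels were 36.4, 38.1 and 31.1 TPM in MIA-PaCa2 and 21.5, 20.1 and 19.5 TPM in PANC-1. Whether reads of HIST2H2BF and HIST2H2BA were split correctly was not tested.

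Of the 11 HIST2 genes, HIST2H3D and HIST2H2BF were the only ones higher in PANC-1 without overlap. HIST2H2AC (chr1:149886918-149887411), an H2A gene of the same cluster, went the other way, at 17.9, 17.8 and 18.4 TPM in MIA-PaCa2 and 1.05, 1.43 and 3.09 TPM in PANC-1 (log2 difference -2.80, SE 0.197, limma, adjusted p = 7.52e-05). HIST2H2BE, its divergent partner, was lower in PANC-1 by less, with 4.72, 6.72 and 5.17 against 2.96, 4.04 and 2.98 TPM (log2 difference -0.59). Both of these genes passed the filter only through MIA-PaCa2. The identical H2A copies HIST2H2AA3 and HIST2H2AA4 were lower in PANC-1, with a log2 difference of -0.61 each, and the H4 copies HIST2H4A and HIST2H4B were level, at 24.3 to 29.04 TPM in MIA-PaCa2 and 25.3 to 28.4 TPM in PANC-1. Their log2 difference was 0.02 (SE 0.0628, limma, adjusted p = 0.803). By position, the genes higher in PANC-1 were the first 2 of the cluster, and the 9 after them were higher in MIA-PaCa2 or overlapped.

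HIST3 was the cluster with the widest gap. HIST3H2A (chr1:228457364-228457873), an H2A gene, had 55.7, 83.1 and 77.2 TPM in MIA-PaCa2 and 9.23, 10.1 and 8.94 TPM in PANC-1. The log2 difference was -2.79 (SE 0.115, limma, adjusted p = 1.24e-05), and the lowest MIA-PaCa2 library was more than 5 times the highest PANC-1 library. Its divergent partner HIST3H2BB, below the filter in PANC-1 and in 2 of the MIA-PaCa2 libraries, had 4.14, 6.32 and 4.34 TPM against 1.30, 1.67 and 1.08 TPM. HIST3H3, an H3 gene known from testis, had 0.363, 0.326 and 1.88 TPM in MIA-PaCa2 and was listed at 0 in PANC-1. The cluster as a whole was 7.22 times as high in MIA-PaCa2. HIST4H4, the only HIST4 gene, stayed under 5 TPM, at 3.07, 4.15 and 3.85 TPM in MIA-PaCa2 and 0.397, 0.404 and 1.33 TPM in PANC-1.

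**Figure D3:**
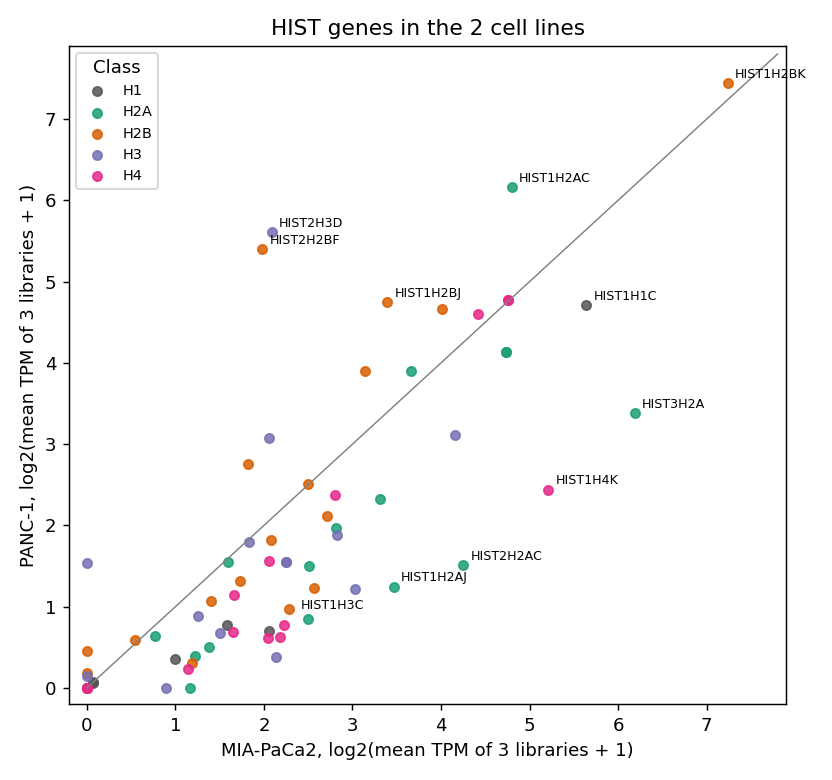
Mean level of each HIST gene over 3 libraries in MIA-PaCa2 (x axis) and PANC-1 (y axis), both as log2(mean TPM + 1), coloured by histone class, with the line of equal levels. HIST2H3D and HIST2H2BF lie far above the line, and HIST3H2A, HIST1H4K and HIST2H2AC far below it.

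In HIST1 the order of the lines followed the position of the genes in part. The 55 genes form 3 blocks on chromosome 6 when parted at gaps over 300000 bases, a limit chosen after the values were seen, so the counts carry no test. Over all genes with an NM transcript that reached 0.01 TPM, 36.3% were higher in PANC-1 without overlap and 30.5% higher in MIA-PaCa2. In the first block (chr6:25726063-26285534), 6 of 34 genes were higher in PANC-1 without overlap and 10 higher in MIA-PaCa2. In the middle block of 5 genes (chr6:27132316-27147562) there was 1 of each. In the last block (chr6:27807479-27893891), 12 of 16 genes were higher in MIA-PaCa2 and 0 in PANC-1. Of the genes of the 3 blocks, 30, 5 and 15 reached 0.01 TPM, and the rest could only overlap. The genes of the last block summed to 104, 112 and 105 TPM in MIA-PaCa2 and 37.6, 30.2 and 28.95 TPM in PANC-1, while those of the first block summed to 159, 187 and 177 TPM and 182, 192 and 210 TPM.

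The last block held the 2 largest differences in favour of MIA-PaCa2 among the tested HIST1 genes, those of HIST1H4K and HIST1H2AJ. HIST1H4K, read here with its copy HIST1H4J, had 34.2, 38.8 and 35.04 TPM in MIA-PaCa2 and 5.25, 4.05 and 3.96 TPM in PANC-1, with a log2 difference of -2.78 (SE 0.113, limma, adjusted p = 1.22e-05). HIST1H2AJ, an H2A gene, had 7.15, 12.03 and 11.03 TPM in MIA-PaCa2 and 2.03, 0 and 2.09 TPM in PANC-1, a log2 difference of -2.36 (-3.68 with a pseudocount of 0.1). HIST1H2AL had 5.33, 5.86 and 2.78 TPM against 1.81, 0.619 and 0 TPM, a log2 difference of -1.72 (-3.14 with a pseudocount of 0.1). Neither H2A gene overlapped between the lines, and both passed the filter only through MIA-PaCa2. HIST1H2AI, HIST1H2AM and HIST1H3H of the same block were also called lower, by log2 differences of -1.02, -0.84 and -1.03. Of these, HIST1H2AI and HIST1H2AM again passed the filter only through MIA-PaCa2.

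The first block held called genes of both directions. Of those named here, HIST1H2BG and HIST1H3E passed the filter only through PANC-1, and HIST1H3B and HIST1H3C only through MIA-PaCa2. The calls of these genes give no support for the direction. HIST1H2AC, an H2A gene, had 28.2, 32.9 and 19.4 TPM in MIA-PaCa2 and 62.1, 74.9 and 74.7 TPM in PANC-1 (log2 difference 1.39, SE 0.162, limma, adjusted p = 0.000548). Its divergent partner HIST1H2BC was higher in PANC-1 as well (0.74), as were HIST1H2BD (0.68), HIST1H2BG (0.91) and HIST1H3E (1.04). Without either ESRP2 library the differences of HIST1H2BC and HIST1H2BD were 0.43 each, and with no filter the HIST1H2BC call was lost (limma, adjusted p = 0.0576). HIST1H1C had 41.4, 55.5 and 50.1 TPM in MIA-PaCa2 and 25.3, 22.6 and 27.5 TPM in PANC-1 (-0.93). The H3 genes HIST1H3C and HIST1H3B were lower in PANC-1 as well, by -1.91 and -0.93. HIST1H3C was at 8.002, 6.84 and 6.70 TPM in MIA-PaCa2 and 0.315, 2.27 and 1.39 TPM in PANC-1. HIST1H3G went the opposite way below the filter, listed at 0 in MIA-PaCa2 and at 1.83, 2.19 and 1.68 TPM in PANC-1.

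**Figure D4:**
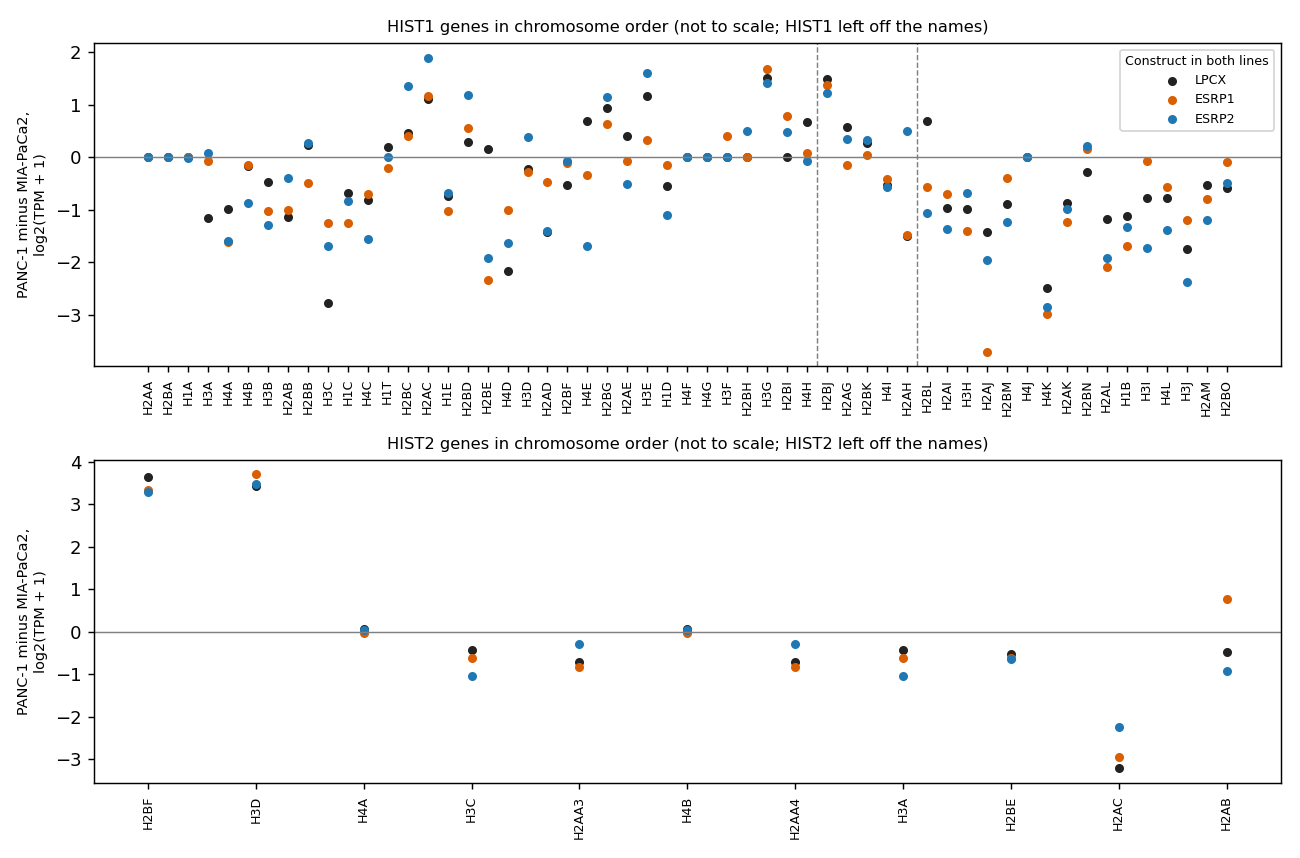
Difference between PANC-1 and MIA-PaCa2 in log2(TPM + 1) for each HIST1 gene (top) and HIST2 gene (bottom) in chromosome order, 1 point per construct, with dashed lines at the HIST1 gaps over 300000 bases. In the last HIST1 block nearly all points lie below 0, and in HIST2 only H2BF and H3D lie far above it.

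The middle block held the most abundant gene. HIST1H2BK was called higher in PANC-1 with a log2 difference of 0.21 (SE 0.0735, limma, adjusted p = 0.041), although its libraries overlapped, with a range of 132 to 177 TPM for MIA-PaCa2 and of 165 to 182 TPM for PANC-1. The call was lost under median ratio scaling of the libraries (0.14, adjusted p = 0.15), with no filter (adjusted p = 0.0702), with limma without a trend (0.0664), without either LPCX library (0.146 and 0.143) and without either ESRP2 library (0.135 and 0.137). Its neighbour HIST1H2BJ had 8.35, 8.50 and 11.7 TPM in MIA-PaCa2 and 25.3, 23.7 and 28.5 TPM in PANC-1 (1.36, SE 0.0833, limma, adjusted p = 4.45e-05). HIST1H2AG, HIST1H4H and HIST1H4E, with HIST2H4A and HIST2H4B, were the tested genes not called between the lines.

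Divergent partners often differed in level. HIST1H2BK averaged 150 TPM in MIA-PaCa2 and 173 TPM in PANC-1, while HIST1H2AH, which starts 247 bases away on the other strand, averaged 1.60 and 0.415 TPM. HIST1H2AC exceeded HIST1H2BC, with means of 26.9 and 70.6 TPM against 7.82 and 14.0 TPM. In 4 of the 14 pairs both genes separated the lines without overlap, and these went in the same direction: HIST2H2BE with HIST2H2AC, HIST3H2A with HIST3H2BB, HIST1H2BC with HIST1H2AC, and HIST1H2AJ with HIST1H2BM. Of single genes with an NM transcript, 36.3% were higher in PANC-1 without overlap and 30.5% higher in MIA-PaCa2. These are shares of genes, not of pairs, and no test of the pairs was made. HIST1H2BF is counted with both HIST1H2AD and HIST1H3D, and HIST1H2AA and HIST1H2BA, under 0.01 TPM throughout, were a pair that could not separate the lines. In 0 pairs did both genes separate the lines in opposite directions. The members of a pair share their upstream sequence, as printed for HIST3H2A and HIST2H2AC.

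Low genes were more often higher in MIA-PaCa2. Of the 37 genes that reached 0.01 TPM but were too low for the test, 51.4% were higher in all MIA-PaCa2 libraries than in any PANC-1 library and 2.7% the reverse, against 20.2% and 23.4% of 6833 such genes with an NM transcript. Of all 65 HIST genes that reached 0.01 TPM, tested ones included, 50.8% were higher in MIA-PaCa2 in this sense and 13.8% in PANC-1, against 30.5% and 36.3% of 17590 genes with an NM transcript. Among genes with a mean of 1 to 10 TPM, some of them tested, 61.8% of 34 HIST genes were higher in MIA-PaCa2 and 5.88% in PANC-1, against 36.1% and 43.7% of 3332 genes. The genes of such a count share clusters and copies and are not independent, and no test of the difference was made. By class, the genes higher in MIA-PaCa2 without overlap were 4 of 6 H1, 11 of 17 H2A, 3 of 18 H2B, 8 of 14 H3 and 7 of 15 H4. Those higher in PANC-1 were 1 H2A, 5 H2B and 3 H3 genes. These class counts include 1 H2A, 1 H2B and 3 H4 genes under 0.01 TPM throughout, which could only overlap.

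Other genes of the histone pathway were read from lists, whose counts stand against 43.1% of all tested genes called higher and 35.6% called lower in PANC-1. Of 24 tested genes of S phase and DNA replication, limma called 15 lower and 4 higher in PANC-1, with a median log2 difference of -0.30 against 0.08 over all tested genes. The lowest were POLA1 (-1.76), the catalytic subunit of DNA polymerase alpha, RFC3 (-1.59), a clamp loader subunit, and MCM6 (-1.11), a subunit of the replicative helicase. PRIM1, RRM1 and CCNE2 were the highest (0.60, 0.49 and 0.37), while PCNA (-0.12) and RRM2 (0.06) were not called. Of 25 genes of histone mRNA 3' end processing and turnover, 15 were called lower and 5 higher, with a median of -0.25. ERI1, an exonuclease that trims the stem-loop end, had a difference of -1.03, SYMPK, the scaffold of the cleavage complex, of -0.86 and CPSF3, the endonuclease, of -0.80. CSTF2T, a cleavage stimulation factor subunit, had the largest difference, 1.06, and LSM10, of the U7 particle that recognises histone pre-mRNA, was higher by 0.89, with MIF4GD, a partner of SLBP, at 0.58. SLBP itself was at -0.13 (limma, adjusted p = 0.111) and was not called.

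Of 15 genes of histone transcription and the histone locus body, 6 were called higher and 4 lower in PANC-1. HINFP, which activates H4 genes, was higher (0.87), and NPAT, the coactivator of the histone locus body, was not called (-0.10, limma, adjusted p = 0.291). Of 21 chaperone genes, which carry histones to chromatin, 11 were lower and 8 higher. RBBP7 (-1.42) and CHAF1B (-1.08), a subunit of the replication-coupled assembly factor CAF-1, were among the lowest, and UBN1 (0.78) was the highest. HIRA (-0.999) and CABIN1 (-0.69), of the same HIRA complex as UBN1, were called lower. Of 12 tested histone genes outside the clusters, most of which encode replacement variants, 4 were higher and 4 lower. H2AFZ, for H2A.Z, had 816 to 885 TPM in MIA-PaCa2 and 1007 to 1191 TPM in PANC-1 (0.39), more than the 70 clustered genes summed in any library. H3F3B (0.51), H1F0 (0.25) and CENPA (0.40) were higher, and H2AFY2 (-2.47), H2AFJ (-2.06), H3F3AP4 (-0.999) and H2AFY (-0.46) lower in PANC-1. H2AFX (0.00), H3F3A (-0.03) and H1FX (0.15) were not called. H3F3AP4 is named as a pseudogene of H3F3A, and the split of reads between them was not tested. The part of these pathway genes in the levels of the clustered genes was not tested.

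The constructs were compared with LPCX in both lines by the same limma fit, with cell line as a term. For ESRP1, 1 of 11829 genes was called (0.00845%, 820 at an unadjusted p under 0.05), and 0 of the 28 HIST genes, with 4 at an unadjusted p under 0.05. For ESRP2, 2 genes were called (0.0169%, 1634 unadjusted), and again 0 HIST genes, with 4 unadjusted. Both comparisons use the same LPCX libraries. The median log2 difference of the 28 genes was 0.08 for each construct, against 0.06 over all genes. For ESRP1, 7 HIST genes had a positive difference in both lines, 2 a negative one and 19 opposite signs. For ESRP2 the counts were 11, 4 and 13. In the pathway lists limma also called 0 genes for either construct.

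Genes with a like sign in both lines were ranked by the smaller of the line ratios. With ESRP1, HIST2H3D was lower than with LPCX in both lines, 2.18 against 3.63 TPM in MIA-PaCa2 and 40.3 against 48.7 TPM in PANC-1 (log2 difference -0.41, SE 0.107, limma, adjusted p = 0.658). HIST2H2BE was higher in both, 6.72 against 4.72 TPM and 4.04 against 2.96 TPM (0.39, SE 0.128, adjusted p = 0.658 by limma). It reached 5 TPM only in the ESRP1 and ESRP2 libraries of MIA-PaCa2, so the filter leaned towards this direction. HIST1H2BD had 19.5 against 15.8 TPM and 29.3 against 19.7 TPM (0.42), and HIST1H2AC 32.9 against 28.2 TPM and 74.9 against 62.1 TPM (0.24). HIST1H2BC, the other gene lower in both lines, had 7.59 against 9.31 TPM and 10.3 against 13.2 TPM (-0.30). At an unadjusted p under 0.05 were HIST2H3D, HIST2H2BE and the copies HIST2H4A and HIST2H4B (0.21). None of these passed the adjustment over all genes.

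With ESRP2, HIST1H2AL was lower in both lines, 2.78 against 5.33 TPM in MIA-PaCa2 and 0 against 1.81 TPM in PANC-1 (log2 difference -1.12, SE 0.263, limma, adjusted p = 0.329). With a pseudocount of 0.1 that difference was -2.58. HIST1H2AL reached 5 TPM only in the LPCX and ESRP1 libraries of MIA-PaCa2. The filter thus leaned towards a low ESRP2 value, and the p-value gives no support for the direction. HIST1H2AI had 8.10 against 9.86 TPM and 2.51 against 4.57 TPM (-0.46, adjusted p = 0.36 by limma). HIST1H2BG was higher in both, 3.16 against 2.14 TPM and 8.17 against 5.04 TPM (0.50, adjusted p = 0.336 by limma), and so was HIST1H2BJ, 11.7 against 8.35 TPM and 28.5 against 25.3 TPM (0.30). Next by this rank were HIST1H1C among the higher (0.19) and HIST1H2BK among the lower genes (-0.09). None of these passed the adjustment.

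**Figure D5:**
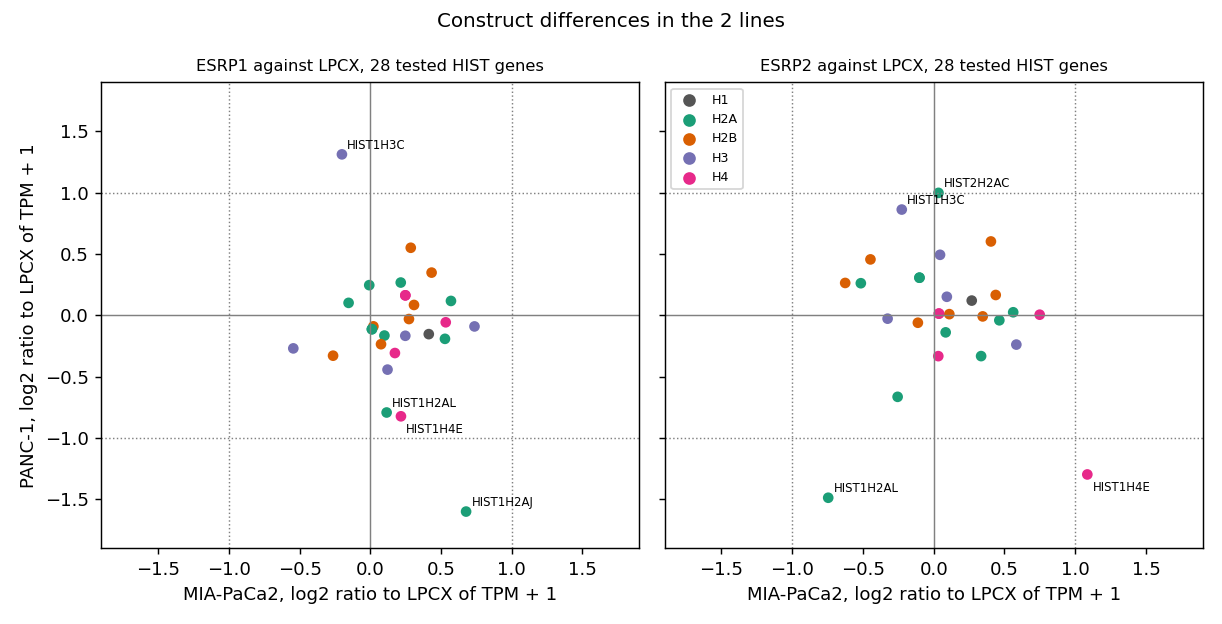
Log2 ratio of TPM + 1 of the ESRP1 (left) or ESRP2 (right) library to the LPCX library in MIA-PaCa2 (x axis) and PANC-1 (y axis) for the 28 tested HIST genes, coloured by class, with dotted lines at 2-fold. Points spread over positive and negative ratios in both lines, genes at 0.75 or more in size are named, and HIST1H4E lies at 1.09 and -1.30 for ESRP2, while other points past a dotted line are genes under 5 TPM in both libraries of that line.

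Within a line there is 1 library a group and no test, and genes with at least 5 TPM in either library were counted from a 2-fold step. With ESRP1, 0 of 26 HIST genes passed in MIA-PaCa2 and 0 of 20 in PANC-1, where 0.538% and 0.368% of all genes were higher and 0.742% and 1.14% lower by that step. With ESRP2 in MIA-PaCa2, 2 of 27 were higher (background 0.808%) and 0 lower (0.808%). HIST1H2BE, an H2B gene, went from 1.80 to 5.72 TPM and HIST1H4E, an H4 gene, from 3.87 to 9.34 TPM. With ESRP2 in PANC-1, 1 of 20 was lower (background 1.58%) and 0 higher (0.377%), and this was again HIST1H4E, from 6.89 to 2.21 TPM. Each of the genes counted passed the 5 TPM filter through 1 of its 2 libraries alone, the one where it was high, so the filter leaned towards the step, and nothing is read from these counts. With 1 TPM in either library, 1 of 54 HIST genes passed the step in either direction with ESRP1 and 5 of 57 with ESRP2 in MIA-PaCa2, against 2.78% and 3.39% of all genes. In PANC-1 these counts were 4 of 45 and 2 of 45, against 3.29% and 3.64%. In MIA-PaCa2 the counted HIST genes had a median log2 ratio to LPCX of 0.20 with ESRP1 and 0.03 with ESRP2, against 0.04 and 0.05 over all genes. The PANC-1 medians were -0.10 and 0.07, against 0.09 and 0.10.

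HIST1H2BK, HIST1H2BD and HIST2H2BF had more than 1 transcript in the table. Whether the introduced splicing regulators had a part in the transcript shares was not tested. For HIST1H2BK, NM_001312653 took 64.2%, 62.3% and 59.3% of the gene in MIA-PaCa2 against 64.2%, 59.8% and 58.9% in PANC-1, with NM_080593 as the rest. The share was lower with either construct than with LPCX in both lines. HIST1H2BD has 1 transcript with the stem-loop (NM_021063) and 1, NM_138720, whose GENCODE model lacks it. Both models have an AATAAA near the end, 27 bases from it in NM_021063 and 25 in NM_138720. NM_138720 took 39.1%, 37.4% and 58.8% of the gene in MIA-PaCa2, against 33.8%, 51.9% and 46.7% in PANC-1. Its level was 6.18, 7.30 and 5.82 TPM and 6.65, 15.2 and 11.1 TPM, while that of NM_021063 was 9.64, 12.2 and 4.08 TPM and 13.03, 14.1 and 12.7 TPM. In MIA-PaCa2 with ESRP2 the share rose through a lower NM_021063, and in PANC-1 with either construct through a higher NM_138720. Each is a difference between 1 library and 1 library. HIST2H2BF was given to NM_001024599 at 91.15% or more in every library.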

How the data were processed

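The authors deposited 1 table of TPM, treated here as a signal because its repeated rows make a column sum to more than 1000000. Per the submitters' processing notes, Salmon and GRCh38 (hg38) were used, with versions not given in the sources used here, and the 8664 repeated rows were dropped, which left 59128 transcripts, and TPM were summed by symbol. One column header names ESRP2 ambiguously and was matched by elimination. TPM keeps no depth, so no counting intervals are given. Differences were fitted with limma 3.58.1 (R 4.3.3) with a trend on log2(TPM + 1), with construct and line as terms (2 residual degrees of freedom), after a check on simulated data. Adjustment was by Benjamini-Hochberg, with calls at 0.05. Sums were compared by exact permutation tests. Within a line, log2 ratios carry no test. Gene positions and upstream sequences are from RefSeq (GRCh38.p14), stem-loops from GENCODE release 29 transcripts. Alternatives covered the pseudocount, the filter, scaling, NM transcripts only, repeated rows, the trend, the line term and leaving out each library.

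The members and gene lists were chosen with earlier results of these data known. Genes were named by a rule: the 15 highest members, those called, the 5 highest and 5 lowest between lines, 3 per direction and construct, those past 2-fold within a line, those with several transcripts, and list extremes. The other members named with values (HIST1H2AH, HIST1H2BM, HIST1H3G, HIST1H4J, HIST2H3A, HIST2H3C, HIST3H2BB, HIST3H3 and HIST4H4) were chosen after their values were seen. So were HIST2H2BA and HIST2H2BC.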

Additional observations from a re-analysis of the deposited data

Results flagged for a closer look

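HIST1H4E moved in opposite directions with ESRP2 in the 2 lines, with a log2 ratio of TPM + 1 to LPCX that was 1.09 for MIA-PaCa2 and -1.30 for PANC-1. With ESRP1 the ratios had the same signs, 0.22 and -0.82. Both PANC-1 ratios use the same LPCX library, at 6.89 TPM. The gene reached 5 TPM only in MIA-PaCa2 ESRP2 and PANC-1 LPCX, so the filter leaned towards these differences. The difference between the lines was not tested, since each ratio rests on 1 library a group, and the levels behind it lie between 2.21 and 9.34 TPM.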

How the results depend on the processing

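The count of 23 HIST genes called between the lines by limma stayed within 20 to 24 when 1 library was left out, and was 39 with a filter of 1 TPM and 38 with no filter, where 55 and 66 HIST genes were tested. Of the 23, 21 kept their call in every alternative in which they were tested, the exceptions being HIST1H2BK and HIST1H2BC (adjusted p = 0.0576 by limma with no filter). Only 19 of the 23 were tested in every alternative. Of 378 alternatives for single genes between the lines, 358 kept direction and call. The sign of genes not called turned when 1 library was left out for HIST1H4E (range -1.02 to 0.176), HIST1H4H (-0.00175 to 0.371), HIST2H4A (-1.706e-05 to 0.0426) and HIST2H4B (-2.759e-05 to 0.0426), and with median ratio scaling for HIST2H4A and HIST2H4B (-0.0552 each). HIST1H4E became called without MIA-PaCa2 LPCX, and HIST1H2AG (0.46) without either ESRP1 library. Genes called for ESRP1 over the whole table were 0 to 1 when 1 library was left out (0 without either ESRP1 library), and for ESRP2 0 to 29 (29 without MIA-PaCa2 ESRP2, 15 without PANC-1 ESRP2, 0 otherwise). The ESRP2 count was 0 with a pseudocount of 0.1, a filter of 1 TPM, no filter or NM transcripts only, and 1 without a trend. The cause was not tested. In every alternative 0 HIST genes were called for a construct. The line is the replicate block of the construct comparisons, since LPCX, ESRP1 and ESRP2 libraries of 1 line belong together. Without this replicate block 0 genes were called for either construct. With 1 TPM in either library as the filter, HIST genes past 2-fold within a line numbered 1 with ESRP1 and 5 with ESRP2 for MIA-PaCa2, against 4 and 2 for PANC-1, where 2.78%, 3.39%, 3.29% and 3.64% of all genes passed. The summed level kept its direction in every alternative. Depth is unknown, so values under 5 TPM may rest on few reads.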
